A study of Mus musculus with 17 samples.

Results

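The genes described here encode the machinery that takes glucose into astrocytes, breaks it down to pyruvate, sends pyruvate to lactate or to the mitochondrion, and stores and releases glycogen. They were taken from a list of 35 symbols, and a row of the count table was kept when its symbol was on the list and its mean count over the 17 libraries was at least 10. This gave 35 rows for 34 genes, out of 56691 gene rows in the table and 17299 with the same mean count. *Aldoa* stood on 2 rows. Its second row, with a mean of 22.9 counts, was the row just inside the limit, and *Slc16a3*, a lactate exporter with a mean of 7.18 counts, was the only listed gene outside it.

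Astrocytes are regarded as the main glycolytic and the main glycogen-storing cells of the brain. Glucose enters through the transporter encoded by *Slc2a1*, is trapped by hexokinase and committed to glycolysis by phosphofructokinase. Pyruvate is then reduced to lactate by lactate dehydrogenase, whose subunits are encoded by *Ldha* and *Ldhb*, oxidized by the pyruvate dehydrogenase complex, or carboxylated by pyruvate carboxylase, the product of *Pcx*, an enzyme that in brain is found mainly in astrocytes and refills the citric acid cycle for glutamine synthesis. Glycogen is made by glycogen synthase and broken down by glycogen phosphorylase.

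The cells were C57BL/6 mouse astrocytes, immunopanned from P2 whole brain without olfactory bulbs, cerebellum and meninges, and grown in serum-free medium with pyruvate, glutamine and the growth factor HB-EGF in all groups. In 1 experiment, SAG, a small molecule that activates Smoothened and thereby the SHH pathway, was given at 500 ng ml-1 from 3 d in vitro for 3 d (SAG, *n* = 3), and its solvent to controls (DMSO, *n* = 3). In the other, FGF2 (*n* = 4) or FGF10 (*n* = 3) was given at 50 ng ml-1 from 2 d in vitro for 7 d, with PBS cultures as controls (*n* = 4). The methods state 3 FGF2 replicates and the labels 4, and all 4 were used. Replicates were described as pools of samples, and no label ties a culture to an animal.

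The libraries hold 1 read position near the poly(A) tail per transcript, so long and short transcripts can be compared without a correction for length. Levels are given as CPM, the count relative to the total of its library, scaled together over all 17 libraries. Total counts ran from 17481727 to 68342287 per library. In bulk cultures, fewer cells of a type and less RNA per cell cannot be told apart. The label of SAG was checked with *Ptch1*, a target of SHH signaling, which was at 67.5 to 103 CPM in DMSO and 458 to 482 CPM in SAG (adjusted *P* = 0.00173, edgeR quasi-likelihood test), and *Gli1* had no count in any DMSO library and 1333, 448 and 210 counts in SAG. Of 15 astrocyte markers, 13 had a mean of at least 1 CPM in DMSO and 14 in SAG, and their summed level was between 5519 and 8789 CPM in all 17 libraries. Oligodendrocyte lineage markers summed to 2211 to 4546 CPM, after an O4 dish had been used to remove oligodendrocyte precursors. Most of this sum was *Olig1* (545 to 1855 CPM) and *Olig2* (756 to 2217 CPM). *Pdgfra* was at 13.2 to 57.5 CPM and *Cspg4* at 0.0287 to 29.0 CPM. Whether precursors remained was not tested. Of 11 microglia and macrophage markers, *Csf1r*, *Aif1* and *C1qb* were at 0 in all groups, and the list never summed to more than 39.4 CPM.

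The 35 rows together held 2462 to 3453 CPM, or 0.246% to 0.345% of all counts. *Aldoc*, the aldolase that is typical of astrocytes, *Pygb*, the brain glycogen phosphorylase, and *Pkm*, the pyruvate kinase of most tissues, made up 43.5% to 56.6% of that sum in each library. *Aldoc* ran from 509 to 781 CPM, *Pygb* from 228 to 698 CPM and *Pkm* from 202 to 827 CPM. These ranges overlapped, and so the order of these 3 genes was not the same in every library.

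For most steps of the pathway, 1 isozyme held most of the reads. Hexokinase 1 (*Hk1*, 55.3 to 180 CPM) exceeded hexokinase 2 (*Hk2*, 0 to 42.7 CPM) in each library. The muscle-type phosphofructokinase *Pfkm* took 55.8% to 91.7% of the reads of the 3 phosphofructokinase genes, *Aldoc* took 77% to 91.6% of the reads of the aldolases *Aldoa* and *Aldoc*, and the muscle phosphorylase *Pygm* took at most 3.40% of the reads of *Pygb* and *Pygm*. The enolases and lactate dehydrogenases were less constant. *Eno2*, the neuronal enolase, held from 0% to 60.5% of the reads of *Eno1* and *Eno2*. *Ldha* held from 14.6% to 58.1% of the reads of *Ldha* and *Ldhb*, so the isozyme with more reads was not the same in every library.

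Precision followed the level. The 9 rows with a mean of at least 100 CPM (*Aldoc*, *Pygb*, *Pkm*, *Ldhb*, *Gapdh*, *Gpi1*, *Pfkm*, *Hk1* and *Aldoa*) had a within-group coefficient of variation of 15.2% to 38.5%, and none was at 0 in any library. The 16 rows from 10 to 100 CPM varied by 28.4% to 82.5%. The 10 rows below 10 CPM, among them *Hk2*, *Eno2*, the lactate and pyruvate transporter *Slc16a1*, the branching enzyme *Gbe1* and the muscle phosphorylase *Pygm*, varied by 61.8% to 391%, and all 10 were at 0 in at least 1 library. *Pgam1*, a phosphoglycerate mutase of lower glycolysis, was at 0 to 10 CPM, and reads that it shares with its pseudogene copies may have been lost in counting.

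**Figure D1:**
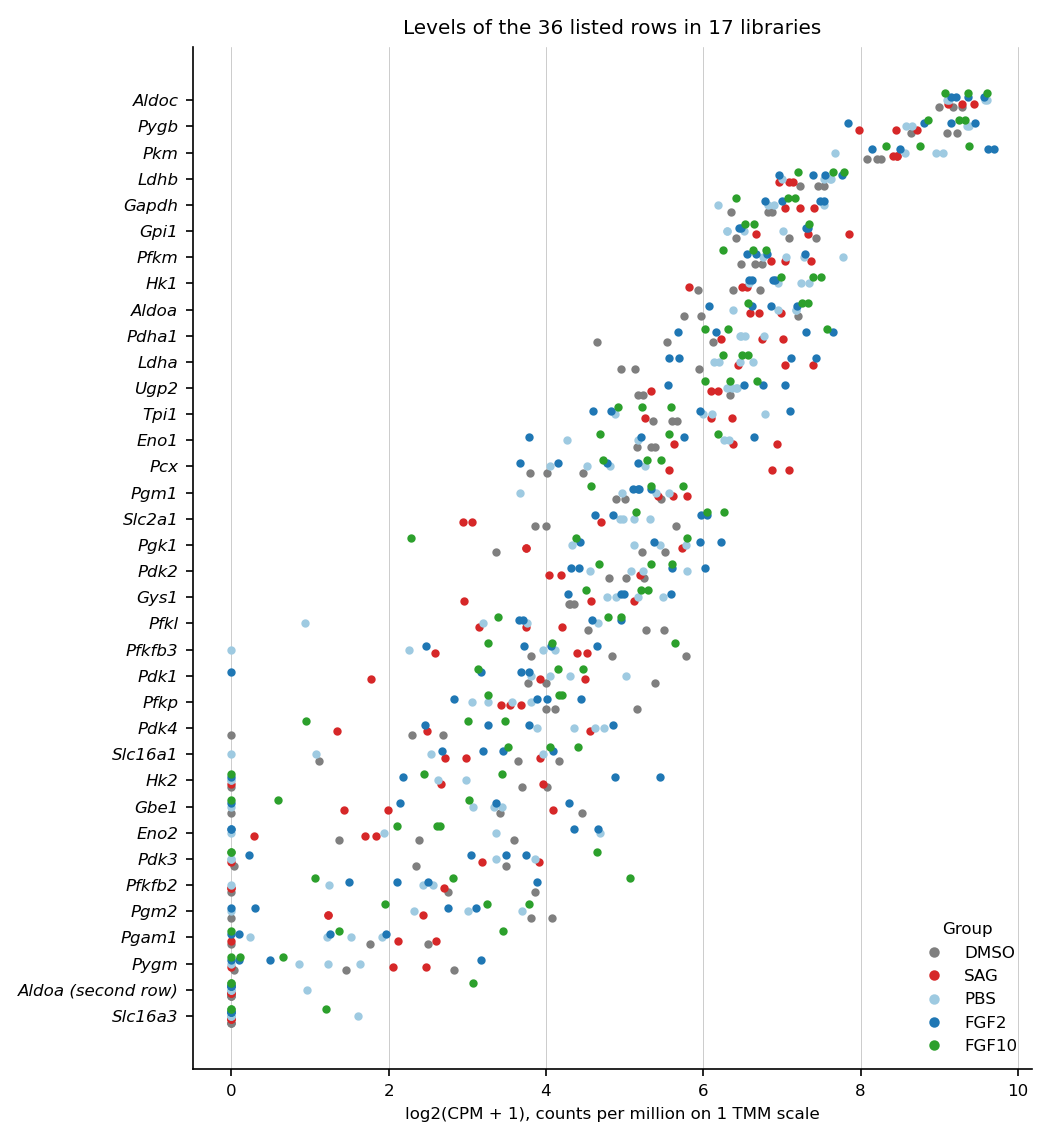
Level of each listed row in each of the 17 libraries, as log2(CPM + 1), where points are libraries, colors are groups and genes are ordered by mean. *Aldoc*, *Pygb* and *Pkm* lie at the top, *Pkm* with the widest within-group variation of the 9 rows above 100 CPM (38.5%), and rows below 10 CPM reach 0 in at least 1 library.

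The question put to the first experiment was which astrocyte genes respond to activation of SHH signaling. Of the 34 member rows tested, 0 passed an adjusted *P* of 0.05 in edgeR's quasi-likelihood test, in which 8 of 12538 genes (0.0638%) did, and 6 members had an unadjusted *P* under 0.05, 5 higher and 1 lower in SAG, beside 5.69% of all genes. The levels of 10 members did not overlap between the SAG and DMSO libraries (7 higher: *Pcx*, *Ldha*, *Eno1*, *Pdha1*, *Gapdh*, *Pfkm* and *Pkm*; 3 lower: *Pfkl*, *Pfkp* and *Ldhb*), beside 14.2% of all genes tested. The median log2(fold-change) of the members was 0.08, beside -0.02 over all genes, with 18 members above and 16 below 0.

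*Pcx* was at 15.2, 13.0 and 21.2 CPM in the 3 DMSO libraries and at 46.4, 136 and 116 CPM in the 3 SAG libraries. All 3 SAG libraries thus lay above all DMSO libraries, and also above the 11 libraries of the FGF experiment, which ran from 11.7 to 43.2 CPM. The log2(fold-change) was 2.62 ± 0.47 (SE), with an adjusted *P* of 0.101 in edgeR. *Pcx* lies on chromosome 19 (GRCm38, 4510472 to 4621752).

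*Ldha*, the subunit that favors lactate production, was at 29.9, 60.6 and 34 CPM in DMSO and at 168, 130 and 85.7 CPM in SAG. The groups did not overlap, and the log2(fold-change) was 1.64 ± 0.37 (SE; adjusted *P* = 0.301, edgeR). *Ldhb*, the subunit that favors use of lactate, was at 175, 184 and 148 CPM in DMSO and slightly lower, at 135, 124 and 141 CPM, in SAG (log2(fold-change) -0.32 ± 0.22).

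Whether *Pcx* and *Ldha* passed the threshold depended on the tool and on the genes tested. Both passed in DESeq2's Wald test (adjusted *P* = 4.02e-07 and 0.000441), in which 2.93% of genes did. Both also passed in edgeR without the filter on low counts (0.408% of genes) and with genes filtered by a mean count of 10 (0.265% of genes). Without SAG replicate 1, the lowest SAG library for *Pcx*, edgeR's adjusted *P* for *Pcx* was 0.0275, and leaving out any other library kept it above 0.05, up to 0.527. For *Ldha*, the range over libraries left out was 0.283 to 0.869.

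The share of *Ldha* in the reads of both subunits does not depend on how libraries are scaled. It was 14.6%, 24.8% and 18.6% in DMSO and 55.4%, 51.3% and 37.9% in SAG, or 19.3% ± 5.14 against 48.2% ± 9.19 (SD, *n* = 3 each). The difference of 28.9 percentage points separated the groups fully. A two-sided exact permutation test gave *P* = 0.1, the smallest that 3 against 3 libraries allow, and 0.45 after adjustment over 45 tests. Without any 1 library the difference stayed between 25.2 and 34 points.

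The 300-base windows around 1 annotated start each of *Ldha* (chr7:46845554-46845853, plus strand), *Ldhb* (chr6:142507908-142508207, minus strand) and *Pcx* (chr19:4510222-4510521, plus strand) are shown (RefSeq, GRCm38.p6; 250 bases before and 50 after the start, 5ʹ to 3ʹ). These genes were chosen for their SAG values at the pyruvate branch, although none passed in the main edgeR fit. Capitals mark ACGTG, a core sequence of hypoxia response elements, on either strand, and CACGTG, the E-box, which contains it on both strands. Other forms of the hypoxia response core were not searched for.
*Ldha*: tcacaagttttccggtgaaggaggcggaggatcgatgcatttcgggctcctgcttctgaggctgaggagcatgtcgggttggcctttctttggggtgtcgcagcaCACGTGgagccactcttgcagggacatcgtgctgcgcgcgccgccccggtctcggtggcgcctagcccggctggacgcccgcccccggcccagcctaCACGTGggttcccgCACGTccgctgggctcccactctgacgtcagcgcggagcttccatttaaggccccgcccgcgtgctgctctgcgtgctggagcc
*Ldhb*: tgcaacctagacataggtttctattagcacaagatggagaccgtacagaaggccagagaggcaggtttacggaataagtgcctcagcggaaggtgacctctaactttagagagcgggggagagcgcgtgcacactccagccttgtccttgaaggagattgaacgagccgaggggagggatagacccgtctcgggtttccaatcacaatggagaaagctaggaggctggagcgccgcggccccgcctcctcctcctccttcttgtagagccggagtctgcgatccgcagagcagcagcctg
*Pcx*: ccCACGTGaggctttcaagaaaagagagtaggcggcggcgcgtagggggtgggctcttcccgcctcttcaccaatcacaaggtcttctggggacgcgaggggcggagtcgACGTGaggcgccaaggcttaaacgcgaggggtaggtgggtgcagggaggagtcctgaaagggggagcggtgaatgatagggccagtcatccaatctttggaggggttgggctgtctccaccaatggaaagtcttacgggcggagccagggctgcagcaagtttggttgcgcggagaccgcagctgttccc
Of the 2 windows that RefSeq gives for *Ldha* and for *Pcx*, the 1 with matches is shown, and the other (chr7:46846832-46847131 and chr19:4594069-4594368) held neither motif; *Ldhb* has 1 window. The window of *Ldha* shown held ACGTG 5 times, counting both strands and 2 E-boxes that count once on each, and that of *Pcx* held it 3 times with 1 E-box. That of *Ldhb* held none. Over the 34 genes, ACGTG was found in 26 of 52 windows (50.0%), some of which overlap, and in 22 genes, and in 19.6% of all 32851 windows. CACGTG was found in 13.5% of the members' windows and 7.15% of all. The members' windows were also richer in G and C (median 60.8% against 52.7%), and windows were not matched for this. The GLI consensus GACCACCCA, the motif of the transcription factors of SHH signaling, was in 0 of the 52 windows and in 0.253% of all windows. Of other members named as higher in SAG, *Gapdh*, *Pfkm* and *Pkm* had ACGTG in at least 1 window, and *Eno1* and *Pdha1* in none. Of those lower in SAG, *Pygb* had 1 match and *Pfkl* and *Pfkp* had none. A relation between matches and direction was not tested. These matches describe letters in the windows and not sites of binding.

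The next smallest unadjusted *P* values were those of *Eno1*, *Pdha1*, *Pygb* and *Gapdh*, in that order. The enolase *Eno1* was at 34.6, 40.9 and 39.4 CPM in DMSO and 122, 48.4 and 82.3 CPM in SAG (log2(fold-change) 1.16 ± 0.39, adjusted *P* = 0.592, edgeR). The SAG libraries lay above the DMSO libraries but spread widely among themselves. *Pdha1*, the catalytic subunit of pyruvate dehydrogenase, was at 24.1, 68.7 and 45.3 CPM in DMSO and 129, 73.7 and 107 CPM in SAG (1.19 ± 0.41, adjusted *P* = 0.616, edgeR). *Gapdh*, often used as a reference gene, was at 103 ± 19.5 CPM in DMSO and 149 ± 18.8 CPM in SAG (SD, *n* = 3), a log2(fold-change) of 0.56 ± 0.25 (adjusted *P* = 0.858, edgeR).

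*Pkm* had closely grouped replicates, at 270, 305 and 294 CPM in DMSO and 351, 353 and 340 CPM in SAG. Its log2(fold-change) was small, 0.29 ± 0.17, and did not pass the test. *Pygb*, which releases glucose from glycogen, was the member with an unadjusted *P* under 0.05 that was lower in SAG: 548, 397 and 596 CPM in DMSO against 349, 420 and 252 CPM in SAG (-0.57 ± 0.23, adjusted *P* = 0.746, edgeR). SAG replicate 2 lay above DMSO replicate 2, so the groups overlapped.

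At the phosphofructokinase step, *Pfkm* was higher and *Pfkl* and *Pfkp*, the liver and platelet types, were lower in SAG, and none passed the test. *Pfkm* was at 107, 88.3 and 99.6 CPM in DMSO and 164, 116 and 131 CPM in SAG (0.50 ± 0.25). *Pfkl* was at 22.1, 37.6 and 44.1 CPM in DMSO and 12.4, 17.4 and 7.85 CPM in SAG (-1.44 ± 0.73). *Pfkp* was at 15, 16.4 and 34.6 CPM in DMSO and 11.9, 9.77 and 10.7 CPM in SAG (-1.005 ± 0.94), with DMSO replicate 3 apart from the others. The share of *Pfkm* in the reads of all 3 genes was 64.0% ± 9.31 in DMSO and 85.2% ± 3.67 in SAG (SD, *n* = 3 each; exact permutation *P* = 0.1, adjusted 0.45), and the ranges did not overlap. The aldolase share did not separate the groups: *Aldoc* held 86.8% ± 7.86 in DMSO and 85.1% ± 2.44 in SAG.

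Uptake and glycogen synthesis showed no difference beyond the spread of the libraries. *Slc2a1* was at 15, 13.5 and 49.2 CPM in DMSO and 7.35, 6.68 and 25.0 CPM in SAG, with replicate 3 highest in both groups. *Hk1* was at 82.1 ± 22.2 and 79.0 ± 20.6 CPM (SD, *n* = 3) in DMSO and SAG. *Gys1*, glycogen synthase, was at 19.0 ± 0.451 CPM in DMSO and 21.1 ± 13.6 CPM in SAG, and *Ugp2*, which makes the UDP-glucose it uses, at 50.5 ± 25.6 and 59.5 ± 17.7 CPM. The kinases that switch off pyruvate dehydrogenase, *Pdk1* to *Pdk4*, had log2(fold-change) values from -0.81 (*Pdk1*) to 1.63 (*Pdk4*), with SE of 0.63 to 2.51. The isomerase *Gpi1*, *Aldoa*, *Tpi1*, *Pgk1*, the regulator *Pfkfb3* and the phosphoglucomutase *Pgm1* overlapped between groups and ranged from -0.97 (*Pfkfb3*) to 0.51 (*Pgm1*). Members below 10 CPM ranged from -1.98 ± 2.43 (*Pgm2*) to 0.64 ± 2.51 (*Pdk3*). The symbols *Pgm1* and *Pgm2* have been exchanged between annotations and are used here as the table gives them. The second row of *Aldoa* did not pass the filter on low counts and was not tested.

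**Figure D2:**
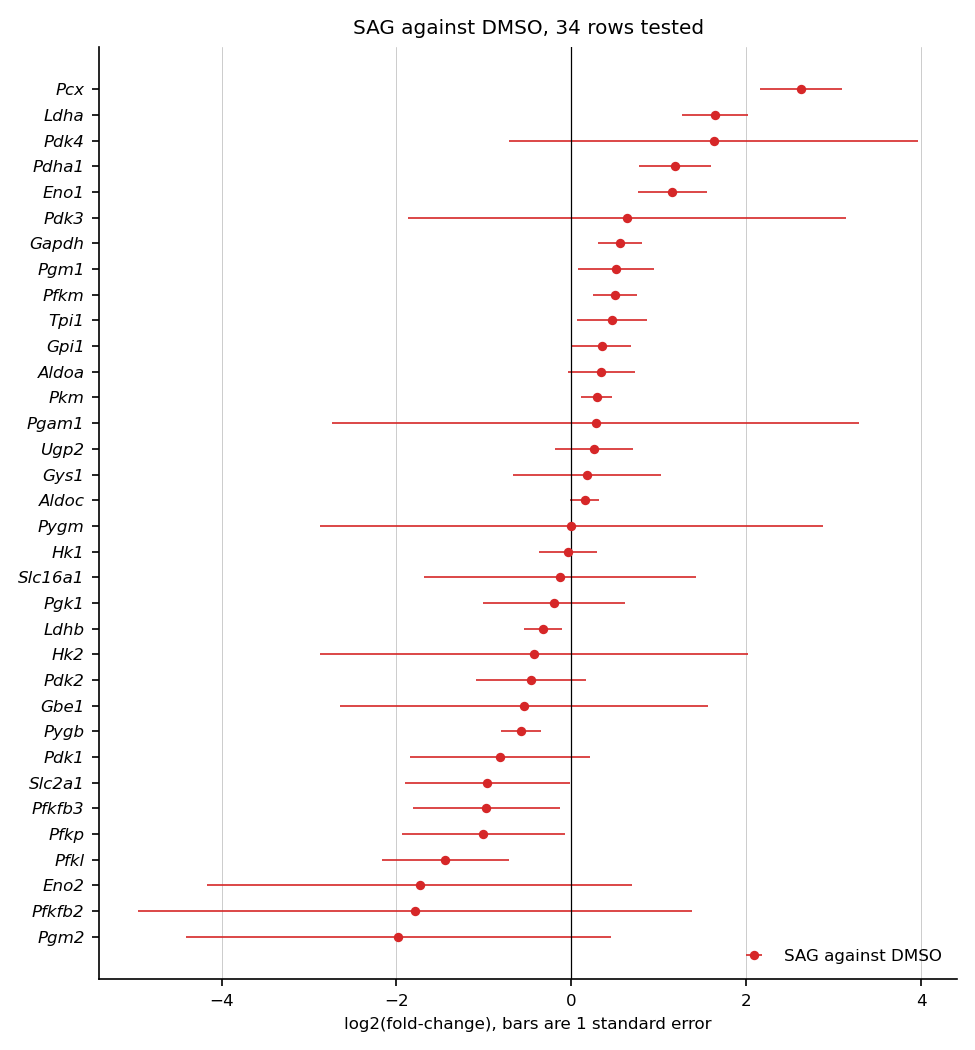
Log2(fold-change) of SAG against DMSO for the 34 member rows tested by edgeR (points), with 1 standard error as bars. *Pcx* (2.62) and *Ldha* (1.64) stand farthest to the right relative to their bars, and rows below 10 CPM have standard errors of 1.55 (*Slc16a1*) to 3.17 (*Pfkfb2*).

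Marker sums of other cell types also differed between DMSO and SAG. The 13 oligodendrocyte lineage markers summed to 2274 to 2791 CPM in DMSO and 3986 to 4153 CPM in SAG, and *Olig1* passed the test (724 ± 43.9 against 1740 ± 38.5 CPM; adjusted *P* = 0.0042, edgeR). *Mog* was at 0 in both groups and *Mag* at 0 in SAG. The 14 neuron markers summed to 964 to 1195 CPM in DMSO and 722 to 893 CPM in SAG. Most of this sum was *Map2* (737 ± 123 against 548 ± 106 CPM) and *Meg3* (212 ± 17.3 against 181 ± 27.0 CPM). Of the 10 neuron markers tested, 0 had an unadjusted *P* under 0.05 in edgeR. The 7 ependymal markers summed to 247 to 302 CPM in DMSO and 110 to 164 CPM in SAG. The 15 astrocyte markers summed to 7406 to 7634 CPM in DMSO and 6705 to 7160 CPM in SAG, also without overlap. Of the 14 tested, 0 passed and 6 had an unadjusted *P* under 0.05: *Gfap* (174 ± 31.0 against 40.4 ± 17.9 CPM; adjusted *P* = 0.0854, edgeR), *Sox9*, *Gja1* and *Glul* were at lower levels in SAG, and *Aldh1l1* and *Slc4a4* at higher levels. Cell cycle genes overlapped (228 to 301 against 275 to 455 CPM). The part of these cells and of the astrocytes' own state in the values of *Pcx*, *Ldha* and the other members was not tested.

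Genes around the pathway were read from the same fit. Of 38 other genes of glucose transport, glycolysis, lactate and pyruvate, 21 were tested and 0 passed, with a median log2(fold-change) of 0.10 and extremes in *Dlat* (1.25 ± 0.86), a subunit of pyruvate dehydrogenase, and the muscle enolase *Eno3* (-2.75 ± 1.85). Of 26 other glycogen and glucose phosphate genes, 21 were tested and 0 passed (median 0.17; *Ppp1r3e*, a subunit that brings a phosphatase to glycogen, 4.08 ± 2.96; *Pgm2l1* -1.61 ± 2.02). All 8 pentose phosphate genes were tested and 0 passed (median 0.21; *H6pd* 1.51 ± 2.53; *Rpe* -2.04 ± 1.61). Of 25 listed genes of the HIF-1 pathway and its hypoxia targets outside glycolysis, 19 were tested and 0 passed, with a median of -0.16, from *Ero1a* (-1.78 ± 2.65) to *Vegfa*, a vascular growth factor (2.60 ± 1.55). Their summed level was 821 to 930 CPM in DMSO and 842 to 893 CPM in SAG.

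The second experiment asked the same of FGF2 and FGF10, which share their PBS controls. Of the 34 member rows tested in each comparison, 0 passed an adjusted *P* of 0.05 in edgeR for FGF2 against PBS (0.0% of 12744 genes), FGF10 against PBS (0.0% of 13309 genes) or FGF2 against FGF10 (0.0% of 13493 genes). DESeq2's Wald test called 9, 37 and 28 genes in these comparisons and no member. At an unadjusted *P* under 0.05 there were 0 members for FGF2 against PBS (1.75% of all genes), 1 for FGF10 against PBS (2.29%) and 1 for FGF2 against FGF10 (2.4%). Levels failed to overlap for 1 member in each comparison, beside 2.45%, 4.79% and 4.9% of all genes. The adjusted *P* of each member rounded to 1 in the edgeR fits, and the log2(fold-change) ranged from -1.27 (*Pdk1*) to 2.64 (*Hk2*) for FGF2 and from -2.25 (*Pygm*) to 2.30 (*Pfkfb2*) for FGF10 against PBS.

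With FGF10, *Pfkm* was lower than in PBS, at 98.4, 111 and 74.9 CPM against 219, 155, 132 and 107 CPM (log2(fold-change) -0.69 ± 0.28). The groups overlapped through PBS replicate 4. Its share of phosphofructokinase reads was 72.3% ± 2.80 (SD, *n* = 3) against 87.6% ± 4.14 (*n* = 4) without overlap. A two-sided exact permutation test gave *P* = 0.0571 (adjusted 0.429), the smallest that 3 against 4 libraries allow. With FGF2 the share was 77.2% ± 6.30, with an overlap with PBS (*P* = 0.0571, adjusted 0.429, exact permutation). For 4 against 4 libraries that test can give a smaller value. In same-numbered pairs the share was lower with FGF2 in 4 of 4, with a mean difference of -10.4 ± 3.04 points (SD). An exact permutation within pairs, added after the data were seen, gave *P* = 0.125, the smallest that 4 pairs allow (0.562 adjusted over 9 shares). Over all genes tested, only 2 of the 4 FGF2 libraries correlated most with the PBS library of their own number, so the pairs are uncertain. Taken within replicates 1 and 2, *Pfkm* had a log2(fold-change) of -0.84 for FGF10 and -0.47 for FGF2. Within replicates 3 and 4, where FGF10 has 1 library, the values were -0.68 and -0.29.

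*Slc2a1* was at 33.9, 39.1, 29.7 and 30.5 CPM in PBS, at 65.4, 62.0, 23.6 and 27.8 CPM with FGF2 and at 75.8, 64.9 and 34.3 CPM with FGF10. Replicates 1 and 2 of both ligands were above all PBS libraries, and replicates 3 and 4 of FGF2 were below them. The log2(fold-change) was 0.43 ± 0.42 for FGF2 and 0.82 ± 0.38 for FGF10. *Hk2* was at 42.7 and 28.4 CPM in FGF2 replicates 3 and 4 and at 0 to 15.1 CPM in the other 15 libraries, which gave a log2(fold-change) of 2.64 ± 2.07 against PBS.

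The member without overlap was *Pdk1*, *Pdk4* and *Hk1* in the 3 comparisons, a count at or near the share over all genes. *Pdk1* was at 8.05, 12.8, 11.9 and 0 CPM with FGF2 and 31.5, 18.7, 15.7 and 13.0 CPM in PBS (-1.27 ± 1.22). *Pdk4* was at 7.08, 10.2 and 0.938 CPM with FGF10 and 19.4, 25.7, 13.8 and 23.7 CPM in PBS (-1.76 ± 0.99). *Hk1* was at 117, 119, 97.4 and 95.0 CPM with FGF2 and 180, 168 and 126 CPM with FGF10 (-0.55 ± 0.24). Its values were -0.55 within replicates 1 and 2 and -0.38 within replicates 3 and 4, where FGF10 has 1 library. Without overlap between the groups, the direction was the same in any subset by construction.

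*Ldha* and *Pcx*, which stood out with SAG, did not separate the FGF groups. *Pcx* was at 25.5 ± 9.15 CPM in PBS, 22.5 ± 10.4 CPM with FGF2 and 35.6 ± 9.07 CPM with FGF10 (SD). The share of *Ldha* in lactate dehydrogenase reads was 32.0% ± 3.80 in PBS, 35.6% ± 19.3 with FGF2 and 31.7% ± 6.39 with FGF10, with exact permutation *P* of 0.743 and 0.971 against PBS. The wide spread with FGF2 came from 19.0% and 19.9% in replicates 1 and 2 and 58.1% and 45.3% in replicates 3 and 4.

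**Figure D3:**
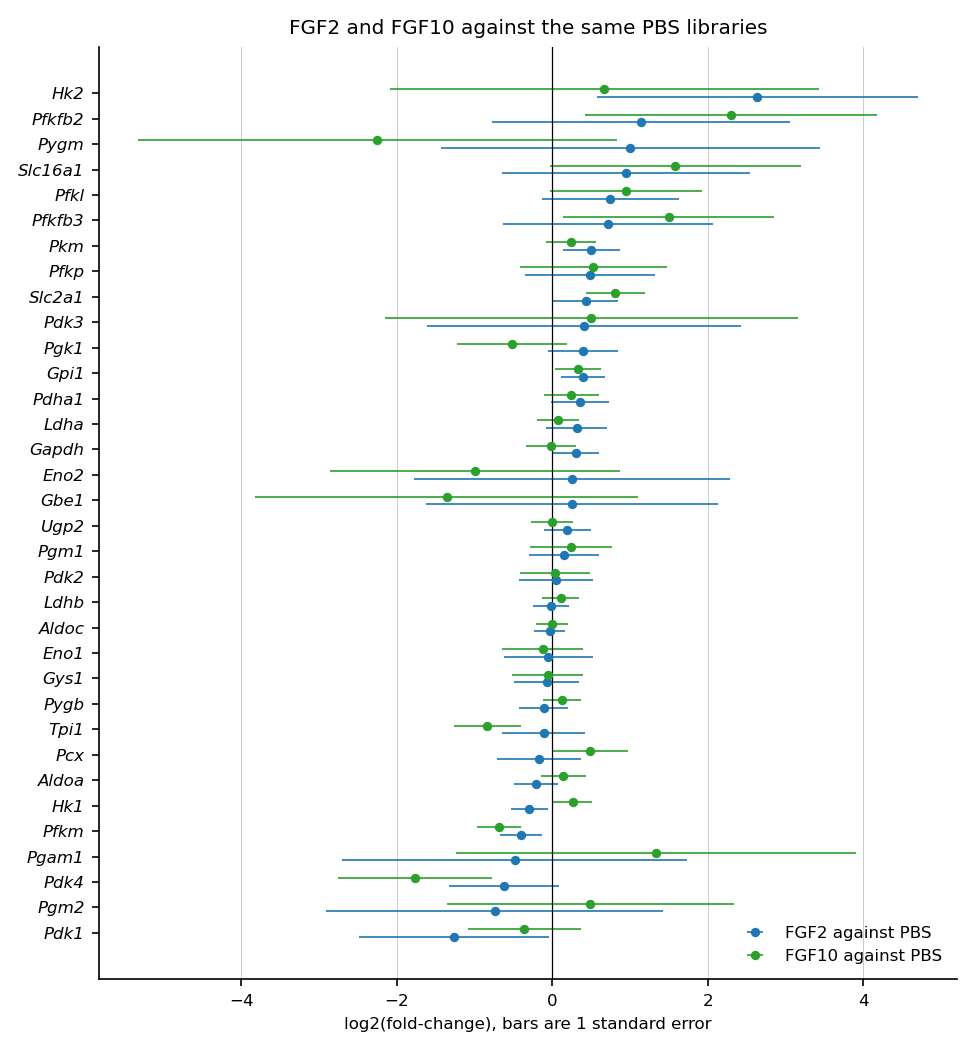
Log2(fold-change) of FGF2 (blue) and FGF10 (green) against the same 4 PBS libraries for the 34 member rows (points), with 1 standard error as bars, ordered by the value for FGF2. With FGF10, *Pfkm* (-0.69) and *Slc2a1* (0.82) lie more than 2 standard errors from 0.

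**Figure D4:**
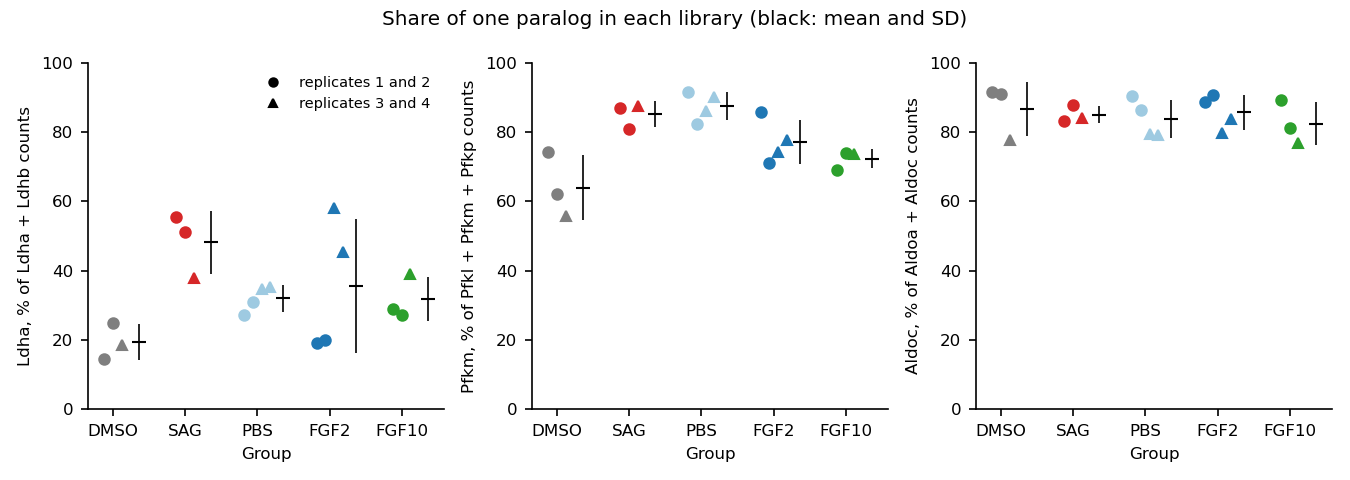
Share of *Ldha*, *Pfkm* and *Aldoc* in the reads of their gene families in each library, in percent, by group, where circles are replicates 1 and 2, triangles replicates 3 and 4, and black marks the mean and SD. *Ldha* reaches 37.9% to 55.4% in SAG against 14.6% to 24.8% in DMSO, and spans 19.0% to 58.1% with FGF2.

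The medians of the members' log2(fold-change) were 0.23 for FGF2 and 0.14 for FGF10 against PBS and -0.02 for FGF2 against FGF10, beside 0.0011, -0.0016 and 0.0085 over all genes. Within replicates 1 and 2 the medians were 0.13, 0.09 and -0.23. Within replicates 3 and 4, where FGF10 has 1 library, they were -0.03, 0.20 and 0.04. With the replicate number as a block, the median for FGF2 against PBS was -0.02, and no member was called.

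Of the other genes around the pathway, 0 passed in any of the 3 comparisons: 22 of 38 were tested in the list of glucose, lactate and pyruvate genes, 23 or 24 of 26 in the glycogen list, 8 of 8 in the pentose phosphate list and 20 to 22 of 25 in the HIF-1 list. *Gpd1*, the glycerol phosphate dehydrogenase that draws on glycolysis, was at 102 ± 49.0 CPM in PBS and 53.5 ± 21.3 CPM with FGF2 (-0.92 ± 0.41). *Eno3* was at 10.6 ± 14.3 CPM in PBS and 0.103 ± 0.178 CPM with FGF10, and *Slc2a13* was at 1.29 ± 1.06 CPM with FGF2 and had no reads with FGF10. These 3 genes had an unadjusted *P* under 0.05 and were named after their values were seen. Medians of the 4 lists were between -0.28 and 0.26.

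In the FGF experiment, levels also differed between replicates 1 and 2 and replicates 3 and 4 across the 3 groups. This division is not in the labels; it was found in an earlier look at these data and is described without a test. Of the 34 member rows, 7 had levels that did not overlap between the 6 libraries of replicates 1 and 2 and the 5 of replicates 3 and 4, beside 4.99% of 14036 genes. Of these 7, 4 were higher in replicates 3 and 4, with *Pkm* at a mean of 660 against 329 CPM, *Eno1* at 75.8 against 28.8 CPM, *Pgk1* at 57.3 against 23.0 CPM, and *Pdha1* at 149 against 73.1 CPM. The other 3 were lower there: *Pygb* at 383 against 638 CPM, *Aldoc* at 561 against 733 CPM and *Ldhb* at 150 against 202 CPM. Other rows of lower glycolysis overlapped between the sets, in both directions: *Tpi1* was at 83.3 against 35.5 CPM, *Gapdh* at 160 against 108 CPM and *Eno2* at 1.59 against 14.4 CPM.

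The replicate sets also differed in what marks other cells. The 12 cell cycle genes summed to 240 to 410 CPM in replicates 1 and 2 and to 1108 to 1716 CPM in replicates 3 and 4. Oligodendrocyte lineage markers summed to 2211 to 2519 and 3703 to 4546 CPM, and astrocyte markers to 7891 to 8789 and 5519 to 6671 CPM. Ependymal markers summed to 370 to 641 and 88.5 to 233 CPM. The part of these cells in the values of the members was not tested.

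**Figure D5:**
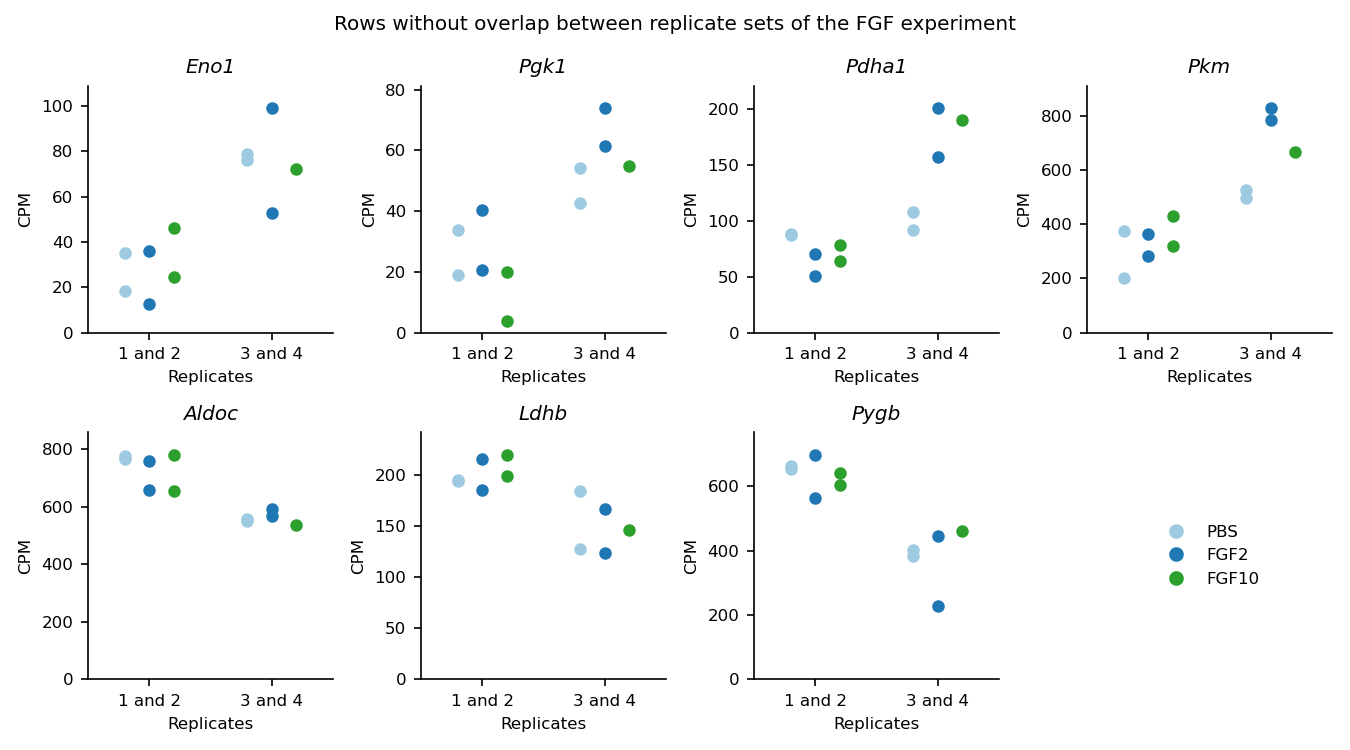
CPM of the 7 member rows whose levels did not overlap between replicates 1 and 2 (6 libraries) and replicates 3 and 4 (5 libraries) of the FGF experiment, where points are libraries and colors are groups. *Eno1*, *Pgk1*, *Pdha1* and *Pkm* are higher and *Aldoc*, *Ldhb* and *Pygb* lower in replicates 3 and 4 of each group.

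The vehicle cultures of both experiments were set side by side to show how far the members differ without SAG or FGF, although vehicle, start and length of treatment and experiment cannot be told apart, and the same DMSO and PBS libraries serve as controls above. Of 34 member rows, 0 passed an adjusted *P* of 0.05 (0.0% of 13271 genes, edgeR), and 126 genes but no member passed in DESeq2. At an unadjusted *P* under 0.05 were 4 members, all higher in PBS (*Pdha1*, *Ldha*, *Hk1* and *Pfkm*), beside 4.37% of genes. Levels of 6 members did not overlap, beside 6.44% of genes, with *Gys1*, *Pdk4*, *Pdha1*, *Pfkm* and *Ldha* higher and *Pfkp* lower in PBS. The median log2(fold-change) was 0.24, beside 0.02 over all genes.

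*Ldha* was at 72.4, 87.6, 98.2 and 69.5 CPM in PBS, above the 29.9 to 60.6 CPM of DMSO (log2(fold-change) 0.99 ± 0.34) and within or below the 85.7 to 168 CPM of SAG. Its share was 32.0% ± 3.80 in PBS, between those of DMSO (19.3%) and SAG (48.2%), and did not overlap with DMSO. The exact permutation test gave *P* = 0.0571 (adjusted 0.429), the smallest that 4 against 3 libraries allow. *Pfkm* held 87.6% ± 4.14 of phosphofructokinase reads in PBS, against 64.0% ± 9.31 in DMSO. *Gys1* was at 33.5 ± 7.90 CPM in PBS and 19.0 ± 0.451 CPM in DMSO (0.83 ± 0.53). *Pcx* was at 15.6 to 37.2 CPM in PBS and 13.0 to 21.2 CPM in DMSO, and so overlapped, unlike in SAG.

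Of the 4 other lists, 0 genes passed, with medians from 0.07 to 0.38. *Tkt*, the transketolase of the pentose phosphate pathway, was at 130 ± 11.1 CPM in PBS, 77.6 ± 6.18 CPM in DMSO and 133 ± 38.2 CPM in SAG, with a log2(fold-change) of 0.76 ± 0.24 for PBS and 0.80 ± 0.29 for SAG against the same DMSO libraries. *Ddit4*, a stress-induced inhibitor of mTOR signaling on the HIF-1 list, was at 394 ± 185 CPM in PBS and 139 ± 49.1 CPM in DMSO (1.51 ± 0.35, adjusted *P* = 0.978, edgeR). *Tkt* and *Ddit4* were named after their values were seen.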

How the data were processed

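RNA-seq of 17 immunopanned astrocyte libraries was analyzed from the deposited table of read counts per gene, which the authors made with QuantSeq 3ʹ libraries and STAR and did not normalize. The submitters' processing notes name STAR, DESeq2 and GRCm38; handling of PCR duplicates is not given in the sources used here. Duplicates and shared reads of pseudogenes could therefore alter single counts. The table had 56805 rows, of which 114 were spike-ins and left out. Groups came from the labels; 3 columns named for Shh were read as SAG.

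Members and lists were chosen with earlier results of these data known. For each of 5 comparisons, edgeR 4.0.16 (R 4.3.3) was run on the libraries of its 2 groups: filterByExpr (minimum count 10, minimum total 15), TMM, quasi-likelihood test, Benjamini-Hochberg adjustment over all genes, call at 0.05. SE was taken from the F statistic. CPM used TMM over all 17 libraries. The 9 paralog shares were compared by two-sided exact permutation, adjusted over 45 tests. Full statistics were planned for called members, the 6 with the smallest unadjusted *P*, up to 10 without overlap and paralog sets. In the FGF and vehicle comparisons, log2(fold-change) and SE are given for only part of these members. P-values measure the spread between these cultures, which may be technical. Alternatives were DESeq2 1.42.0 (Wald test, size factors), other filters, all groups in 1 fit, replicate block or set, named copies summed and each library left out. The fit was required to recover known changes in simulated counts only at a spread far below that of these data. Over all genes tested, the common biological coefficient of variation was 107% to 117% in the 5 comparisons. At this spread, 0 calls do not show that there is no difference. The replicate numbers paired FGF2 with PBS cultures by the rule used (correlation of deviations 0.114 to 0.133 over 4 pairs, each above 0.1) and not the other groups. Only 2 of the 4 FGF2 libraries correlated most with the PBS library of their own number, so the rule does not establish pairs. Symbols were matched to RefSeq (34 of 34 with a promoter window).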

Additional observations from a re-analysis of the deposited data

Results flagged for a closer look

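Of 85 sets of 4 libraries tested for a value far from the other 3, 4 were found, and chance alone gives about 1 in 20. *Ldhb* was at 127 CPM in PBS replicate 4, and at 185 to 196 CPM in the other PBS libraries. *Pygm* was at 8.04 CPM in FGF2 replicate 3 and at 0 to 0.412 CPM in the others, and accordingly its share of the reads of *Pygb* and *Pygm* was 3.40% there and 0% to 0.0925% in the others. The second row of *Aldoa* was at 0.949 CPM in PBS replicate 4 and at 0 in the other PBS libraries.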

How the results depend on the processing

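Counts of called genes changed more with the settings than the members did. For SAG against DMSO, 8 genes were called, 4 with all 5 groups in the fit, 367 in DESeq2's Wald test, 76 without a filter, 42 with genes filtered by a mean count of 10 and 12 with the replicate block. *Pcx* and *Ldha* made up the 2 members called in DESeq2 and with either filter setting, and no member was called otherwise. Leaving out 1 library gave 1 to 7 genes (1 without DMSO replicate 1, 2 without SAG replicate 2 or 3, 5 without DMSO replicate 2 or 3) and 0 to 1 member (*Pcx*, without SAG replicate 1), and the members' median moved between -0.16 (without SAG replicate 2) and 0.18. For FGF10 against PBS the median was -0.02 without FGF10 replicate 3. DESeq2 called 9 genes for FGF2 against PBS, 37 for FGF10 against PBS, 28 for FGF2 against FGF10 and 126 for PBS against DMSO. FGF2 against FGF10 gave 2 genes without a filter and 36 within replicates 3 and 4, where FGF10 is 1 library that is assumed to vary like FGF2, and PBS against DMSO gave 1 with all groups, 4 with the mean filter and 36 without a filter. No member was among any of these; the cause was not tested.

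The sign turned for several values that had passed no test. For FGF2 against PBS, *Hk2* was -0.53 within replicates 1 and 2 and *Slc2a1* -0.22 within replicates 3 and 4. For FGF10 against PBS, *Gpi1* was -0.066 within replicates 3 and 4, where FGF10 has 1 library that is assumed to vary like PBS. For FGF2 against FGF10, *Tpi1* was -0.37 within replicates 1 and 2 and between -0.0099 (without FGF2 replicate 3) and 1.004 with 1 library left out. The *Aldoc* share for SAG against DMSO differed by -6.20 to 0.74 points with 1 library left out. With the replicate block, the median of the members for FGF2 against PBS was -0.02 in place of 0.23 and the count stayed at 0; the block changed no call of a member in any comparison. Outside the FGF2 and PBS groups, same-numbered libraries did not pair by the rule used, with correlations of deviations from -0.01 to 0.17. Members below 10 CPM, with standard errors often over 1, could show only large differences.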
